A study of Saccharomyces cerevisiae with 6 samples.

Results

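The genes described here encode 10 glycoproteins of the wall of the budding yeast Saccharomyces cerevisiae. CWP1 (YKL096W), CWP2 (YKL096W-A), CCW12 (YLR110C), SED1 (YDR077W) and TIP1 (YBR067C) encode mannoproteins made with a lipid anchor. PIR1 (YKL164C), HSP150 (YJL159W), PIR3 (YKL163W) and CIS3 (YJL158C) belong to the PIR family, and YGP1 (YNL160W) encodes a secreted glycoprotein. Members were chosen by name, and each had 1 non-control probe among the 6256 probes of the array. All 10 were well above background on all 6 arrays and were among the 5907 genes tested. Total RNA was measured on 6 one-colour (Cy3) Agilent arrays. Of these, 3 held cells fermenting 50 g/L xylose and sampled at 9 h, and 3 held cells fermenting 50 g/L glucose and sampled, by their titles, time-point labels and the series' design text, at 3 h. The source names of the glucose samples read 9 h, a conflict the labels do not settle; 3 h is used as the group's name here. If it holds, carbon source and sampling time changed as one, and their parts in a difference cannot be told apart. The labels name neither a strain nor separate cultures for the numbered replicates, and p-values cover no more than the spread among these arrays, possibly a technical one. The study's title concerns promoters for use on xylose.

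The yeast wall is a net of glucan fibres covered by a coat of heavily mannosylated proteins. In one class of wall proteins a glycosylphosphatidylinositol (GPI) anchor is cut and the protein is then joined through its remnant to beta-1,6-glucan. PIR proteins, named for their internal repeats, carry no such anchor and are linked directly to beta-1,3-glucan through their repeat units. Which coat proteins a cell makes is known to change with growth rate, cell cycle stage, temperature, oxygen and wall damage, the last sensed by the cell wall integrity pathway of membrane sensors, protein kinase C and the MAP kinase Slt2.

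Levels are log2 processed signal relative to the 75th percentile of the array's spots, averaged over up to 7 spots of a probe. Levels of different probes were not read as relative amounts of their transcripts. Xylose replicates 1 and 2 were close to each other (r = 0.993 across genes, a description of the arrays, since genes are not independent). Glucose replicate 2 stood apart. It correlated with glucose replicates 1 and 3 at 0.868 and 0.837, where these correlated with each other at 0.958. Values are therefore given with all 6 arrays and, where they matter, without glucose replicate 2, an array singled out after values had been seen. Replicates 1 and 2 of both sugars shared a slide, and replicate 3 of both sugars lay on another.

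With all 6 arrays, CWP1 rose in xylose and CIS3 fell, and the other 8 members did not pass the test (limma, Benjamini-Hochberg adjusted p under 0.05 over all genes tested). In bulk RNA, a change in how many cells make a transcript and a change in its amount per cell cannot be told apart. The member with the highest difference, PIR3 at 8.61-fold, missed the threshold, and it passed without glucose replicate 2. Thus 2 of 10 members were called, where 2.52% of all genes tested were (1.42% higher and 1.10% lower in xylose). Without glucose replicate 2 the count was 3 of 10, CWP1 and PIR3 higher and CIS3 lower, against 11.5% of all genes (5.89% higher and 5.65% lower). In the fit blocked on replicate number, CWP1 and CIS3 were again the members called (5.25% of all genes called), and with the slide as a block HSP150 joined them as higher (11.7%). Leaving out any xylose array, or glucose replicate 1, ended the calls of both CWP1 and CIS3, and leaving out glucose replicate 3 ended that of CWP1 (limma adjusted p from 0.0581 to 0.151 for CWP1 and 0.0676 to 0.128 for CIS3). With xylose replicates 1 and 2 averaged as 1 sample neither was called (limma adjusted p = 0.145 for CWP1 and 0.131 for CIS3), and with normexp background correction CWP1 missed the threshold at 0.0503. Members with positive differences numbered 8 and those with negative ones 2, against 3046 and 2861 of all genes; on a scale set by spike-in controls 3 were positive (CWP1, PIR3 and TIP1) and 7 negative, against 642 and 5265 of all genes, whose median there was -0.67. That scale leans on single arrays in both sugars. Relative to the array's 75th percentile, the mean spike-in level was 0.83 and 0.72 on xylose replicates 1 and 3. On xylose replicate 2 it was well above these, and the highest of the 6 arrays. On glucose replicates 1 to 3 it was -0.56, 0.65 and 0.89. No setting on that scale left out xylose replicate 2. With glucose replicate 1 left out of the spike-in setting, an alternative chosen after seeing the data, the median of all genes was -0.21, and 7 members were positive and 3 negative (CIS3, PIR1 and CCW12). The median difference of the 10 was 0.60 on the log2 scale, against 0.02 over all genes. The groups did not overlap for 6 of the members (CIS3, HSP150, CWP1, CWP2, PIR3 and CCW12), against 23.5% of all genes.

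**Figure D1:**
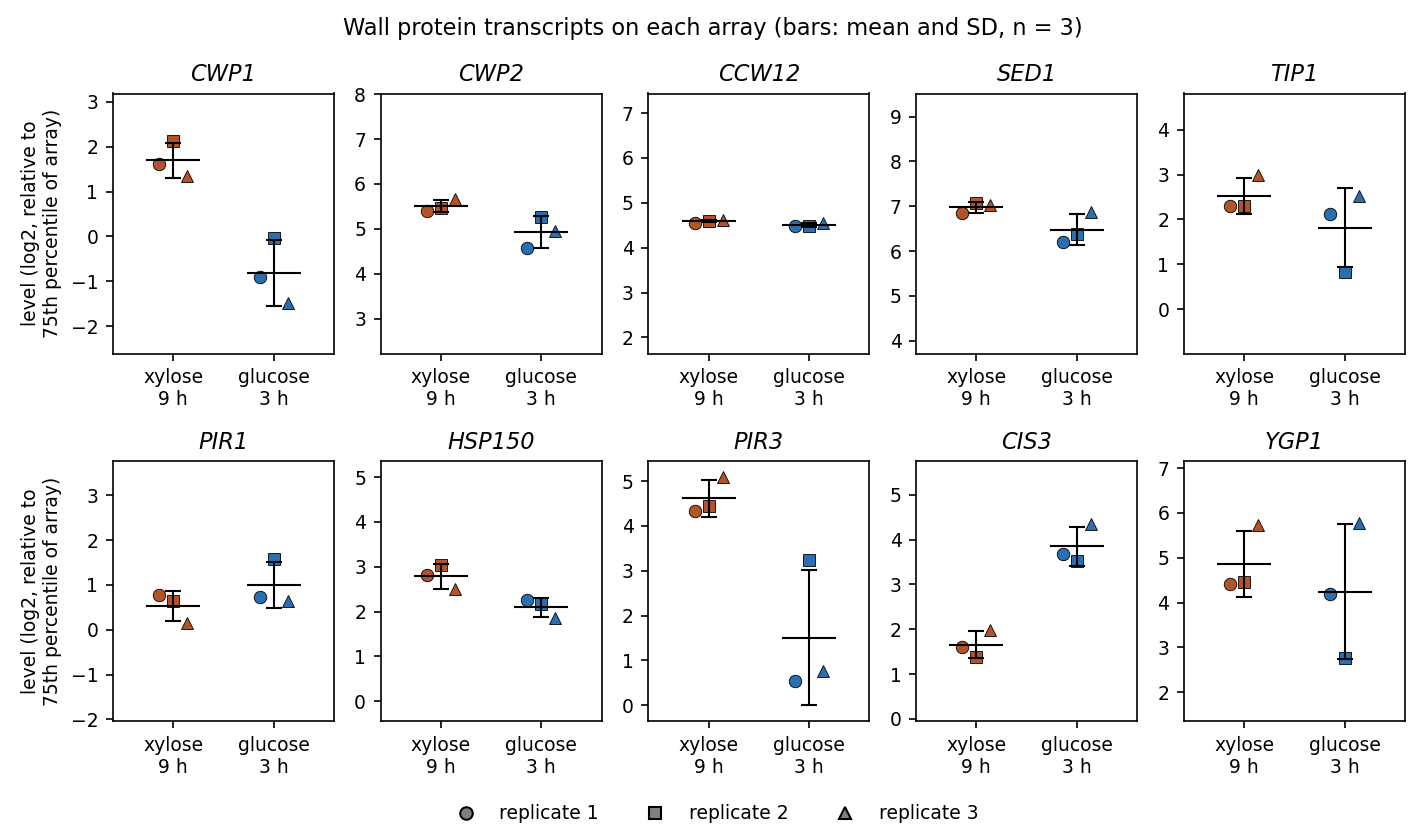
Level of each of the 10 transcripts (y axis, log2 relative to the array's 75th percentile, the same span in each panel) on the 3 xylose arrays at 9 h and the 3 glucose arrays at 3 h, with the replicate number as the symbol and bars for the mean and SD (n = 3). The xylose and glucose points of CWP1, PIR3 and CIS3 lie apart, whereas those of CCW12 are nearly level, at means of 4.59 in xylose and 4.51 in glucose.

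Among the 5 GPI mannoproteins of the members, CWP1 had the largest difference. CWP1 encodes a protein known from the birth scar and made in aerated cells, in whose place cells without oxygen make proteins of the TIR and DAN families. Its levels were 1.62, 2.12 and 1.36 on xylose replicates 1 to 3, against -0.91, -0.04 and -1.49 on glucose replicates 1 to 3. Every xylose array thus lay above every glucose array. The log2 difference was 2.51 ± 0.41 (SE, n = 3 against 3), which is 5.70-fold higher in xylose (limma adjusted p = 0.0293), and 0.999% of all genes tested had a larger difference in either direction. Taken run by run, CWP1 was higher in xylose by 2.53, 2.15 and 2.85. The difference was 2.34 within the slide that held replicates 1 and 2 (limma adjusted p = 0.151) and 2.90 ± 0.31 without glucose replicate 2 (0.00841). Relative to spike-in controls, CWP1 differed by 1.82 (0.187), and by 2.22 there without glucose replicate 1 (0.0239); with all arrays limma gave every member the same SE there, 0.70, so that a p on that scale follows the size of the difference.

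CWP2, which encodes a small major mannoprotein of the wall, had levels of 5.40, 5.47 and 5.67 in xylose, against 4.57, 5.26 and 4.96 in glucose. The ranges did not overlap, with the highest glucose value, that of replicate 2, just below the lowest xylose value. Its difference was 0.58 ± 0.26 and did not pass the test (limma adjusted p = 0.328, 95% interval -0.04 to 1.20). The value of glucose replicate 3 rests on 2 of 7 spots, the others having been marked as non-uniform or outlying.

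SED1 encodes a GPI mannoprotein known to be abundant in stationary phase and whose promoter is used to drive genes of cell-surface display. Its levels were 6.84, 7.07 and 7.02 in xylose, against 6.19, 6.38 and 6.86 in glucose. Glucose replicate 3 reached the xylose range, so the groups overlapped. Replicate 3 of both sugars rests on 4 of 7 spots, 3 having been marked non-uniform; with all spots kept the levels were 6.85, 7.07 and 6.83 in xylose against 6.21, 6.38 and 6.67 in glucose, without overlap. The difference of 0.50 ± 0.26 did not pass (limma adjusted p = 0.408), with an interval of -0.11 to 1.11. SED1 was the brightest of the members, its brightest spots standing at 31.0% to 67.9% of the scanner's saturation value, and no spot was marked saturated.

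CCW12, encoding a short mannoprotein that is among the most abundant of the wall and is needed for normal wall stability, was the steadiest member. Its levels were 4.56, 4.59 and 4.61 in xylose, against 4.48, 4.48 and 4.56 in glucose. The groups just failed to overlap, and the SD was 0.02 in xylose and 0.04 in glucose. The difference was 0.08 ± 0.21 (limma adjusted p = 0.910), and on the spike-in scale -0.61 (0.661), or -0.18 without glucose replicate 1. CCW12 was the 1 member of 10 whose 95% interval, -0.41 to 0.57, lay within 2-fold either way, a criterion met by 34.4% of all genes.

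TIP1, a mannoprotein gene found through its induction by cold shock, had levels of 2.30, 2.29 and 2.99 in xylose and 2.11, 0.83 and 2.51 in glucose. Glucose replicate 2 alone lay far below the rest. TIP1 differed by 0.71 ± 0.47 with all arrays (limma adjusted p = 0.521) and by 0.21 ± 0.30 without glucose replicate 2 (0.696).

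**Figure D2:**
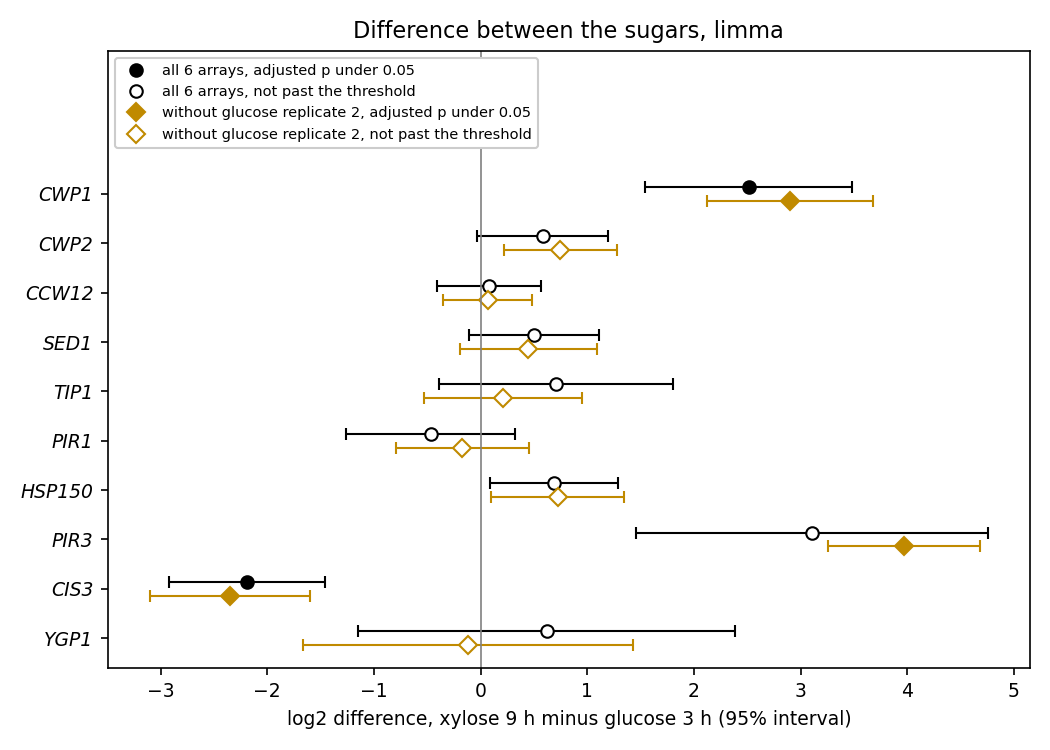
Log2 difference of each member, xylose 9 h minus glucose 3 h (x axis), with its 95% interval from limma, for all 6 arrays (circles) and without glucose replicate 2 (diamonds); filled symbols passed an adjusted p of 0.05. CWP1 lies right of 0 and CIS3 left of 0 with filled symbols in both fits, and PIR3 is filled only without glucose replicate 2, at 3.97.

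Among the PIR genes of the members, PIR3 and HSP150 had positive differences and CIS3 and PIR1 negative ones. HSP150 stood at -6e-04 on the spike-in scale and at 0.53 there without glucose replicate 1. PIR5 (YJL160C), a PIR gene outside the members, differed by -0.09 ± 0.43 (limma adjusted p = 0.949). PIR3 encodes a PIR protein whose transcript is known to peak as cells leave mitosis. Its levels were 4.32, 4.44 and 5.08 in xylose, against 0.54, 3.23 and 0.76 in glucose. All xylose arrays lay above all glucose arrays, and glucose replicate 2 was far closer to the xylose arrays than glucose replicates 1 and 3 were. With all arrays the difference was 3.11 ± 0.70 (limma adjusted p = 0.0744, 95% interval 1.46 to 4.75). Without glucose replicate 2 it was 3.97 ± 0.28, or 15.6-fold higher in xylose (adjusted p = 0.00345). PIR3 was higher in xylose by 3.79, 1.21 and 4.32 in runs 1 to 3, and by 2.50 within the first slide. On the spike-in scale PIR3 passed at 2.42 (limma adjusted p = 0.0326), the one setting with all 6 arrays in which it did. Every member had the same SE there, 0.70, so that p does not reflect the spread of PIR3 itself.

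CIS3, also known as PIR4, encodes a mannoprotein linked in the wall mostly of growing buds. Its levels were 1.60, 1.39 and 1.99 in xylose, against 3.67, 3.53 and 4.35 in glucose. The highest xylose value was well under the lowest glucose value, and glucose replicate 2 stood with the other glucose arrays. CIS3 fell to 0.219 of its glucose level (log2 difference -2.19 ± 0.31, limma adjusted p = 0.0206), and 1.51% of all genes had a larger difference in either direction. The difference was -2.07, -2.14 and -2.36 in runs 1 to 3, -2.10 within the first slide (adjusted p = 0.139) and -2.88 on the spike-in scale (0.00444).

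HSP150, also known as PIR2, encodes a PIR protein that is secreted to the medium as well as held in the wall, and that is induced by heat shock. Its levels were 2.81, 3.04 and 2.50 in xylose, against 2.27, 2.16 and 1.86 in glucose. The groups did not overlap. The difference of 0.69 ± 0.25 did not pass with all arrays (limma adjusted p = 0.235, unadjusted p = 0.0296); with the slide as a block the adjusted p was 0.0360. With all spots kept the difference was 0.17, since 1 of 7 spots of xylose replicate 3 was marked as outlying and lowered that array to 0.95.

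PIR1, whose product contributes to heat tolerance together with the other PIR proteins, had levels of 0.78, 0.65 and 0.14 in xylose and 0.74, 1.58 and 0.65 in glucose. The groups overlapped, with glucose replicate 2 the highest array. Its difference was -0.47 ± 0.34 (limma adjusted p = 0.558) and -0.17 ± 0.25 without glucose replicate 2 (0.708). Probe sequences were not used here, and PIR genes resemble each other, as do CCW12 and its near-copy CCW22 (YDR134C); whether a probe also read a related transcript was not tested. CCW22 itself differed by -0.02 ± 0.23.

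YGP1, encoding a secreted glycoprotein known to rise when nutrients run low, varied more within each sugar than between them. Its levels were 4.42, 4.45 and 5.72 in xylose and 4.19, 2.77 and 5.77 in glucose. Replicate 3, on its own slide, was the highest of both groups, and glucose replicate 2 was the lowest of all. The difference was 0.62 ± 0.75 (limma adjusted p = 0.757), and it turned to -0.12 ± 0.62 without glucose replicate 2. The value of glucose replicate 3 rests on 1 of 7 spots, the other 6 having been marked non-uniform; with all 7 it was 5.27.

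Of the 10 genes, 6 form 3 pairs of direct neighbours on a chromosome by the order of genes in the RefSeq annotation of assembly R64: CWP2 and CWP1 follow each other on the same strand, PIR1 and PIR3 are divergent, and HSP150 and CIS3 are convergent. In each pair the neighbours' differences were unequal in size. The CWP1 difference exceeded that of CWP2 by 1.93 on the log2 scale. The PIR1 difference less that of PIR3 was -3.57, and the CIS3 difference less that of HSP150 was -2.88. The signs of the 2 neighbours' own differences were alike for CWP1 and CWP2 and opposite for PIR1 and PIR3 and for CIS3 and HSP150. Of these 6 genes only CWP1 and CIS3 passed the test with all 6 arrays. The signs also depend on the scale, since relative to spike-in controls CWP2 (-0.11) and HSP150 (-6e-04) were negative. For each of the 3 ratios the two-sided exact permutation test over the 6 arrays gave p = 0.10 (also after adjustment over the 3 pairs), the smallest that 3 arrays against 3 allow.

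**Figure D3:**
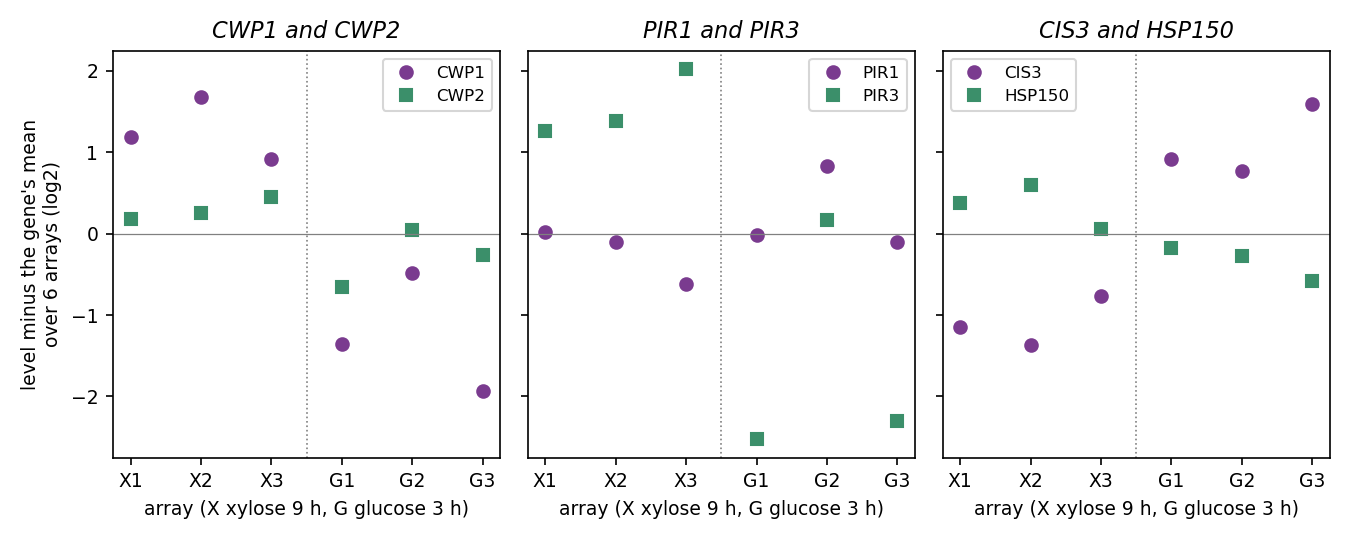
Level of each neighbour on each array minus the gene's own mean over the 6 arrays (y axis, log2), with xylose replicates X1 to X3 left and glucose replicates G1 to G3 right of the dotted line. CIS3 and HSP150 lie on opposite sides of 0 in the 2 sugars, and PIR3 spans a wide range where PIR1 stays within about 1 of its mean.

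PIR3, the member with the largest difference, was matched to the genes outside the members with the most similar profile, measured as the root mean square difference between gene-centred levels over the 6 arrays. The closest were NDE1 (0.16), an external NADH dehydrogenase of mitochondria, CYC1 (0.28), cytochrome c, and the open reading frame YML089C (0.36). NDE1 had levels of 2.62, 2.49 and 3.20 in xylose, against -1.55, 1.13 and -0.95 in glucose, so that its glucose replicate 2, like that of PIR3, lay nearest to the xylose arrays.

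Other genes of the wall were taken from 3 lists. Of 20 other wall mannoproteins tested, 1 rose, 1 fell and 18 did not pass (2.52% of all genes were called), and the median difference was -0.14. FIT2, a wall mannoprotein that retains iron siderophores, rose (2.27 ± 0.34, limma adjusted p = 0.0235). TOS6, a GPI protein gene of the G1/S programme, fell (-2.31 ± 0.29, 0.0153). TIR4, a mannoprotein of cells short of oxygen, had the largest difference, -2.96 ± 0.74 (0.0960), with levels of -2.12, -2.09 and -1.98 in xylose against 1.37, -0.93 and 2.26 in glucose. The other TIR and DAN genes of the list went both ways, and none passed with all 6 arrays. TIR1 (-1.71 ± 1.03), TIR3 (-2.43 ± 1.08) and DAN1 (-2.22 ± 2.24) were lower in xylose, and TIR2 (0.76 ± 0.73) and DAN4 (0.27 ± 0.49) higher. DAN1 was well above background on only 2 glucose arrays, and its glucose replicate 2 stood at -7.85, below every xylose array. Without glucose replicate 2, 3 of the 20 rose and 6 fell, against 5.89% and 5.65% of all genes. Among those that fell were TIR4 (-3.88, limma adjusted p = 0.00387), TIR1 (-3.005, 0.0158), TIR3 (-3.80, 0.00624) and DAN1 (-5.18, 0.00367). TIR2 (0.368) and DAN4 (0.301) stayed positive there and did not pass.

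Of 17 genes of the cell wall integrity pathway, 1 fell, none rose (1.10% of all genes were lower and 1.42% higher) and the median was 0.15. The one that fell was WSC3, encoding a membrane sensor of wall stress, at -1.29 ± 0.21 (limma adjusted p = 0.0293). The sensor genes MTL1 and MID2 had the next largest differences, at 0.92 ± 0.29 (0.167) for MTL1 and 0.82 ± 0.22 (0.115) for MID2. Without glucose replicate 2, 2 of the 17 rose and 1 fell, where 11.5% of all genes were called. SLT2, the MAP kinase of the pathway, had levels of 1.89, 1.90 and 2.12 in xylose against 1.10, 2.90 and 1.46 in glucose, and its kinase paralog KDX1 stood at -2.38, -2.43 and -2.53 in xylose against -3.40, -0.01 and -3.55 in glucose; glucose replicate 2 was the highest array for both, and the 2 genes were named after their values were seen.

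The list for mannosylation and processing of wall proteins had 17 genes, among them GAS1, whose product acts on glucan. None of the 17 was called with all 6 arrays by limma, and none had an unadjusted p under 0.05. Their median was -0.32, with 14 of 17 below 0, against 2861 of 5907 for all genes. PMT2, a protein O-mannosyltransferase, differed by -0.85 ± 0.47 (limma adjusted p = 0.437), GAS1, a GPI-anchored glucan transferase, by -0.74 ± 0.35 (0.357) and PMT3 by -0.73 ± 0.44 (0.479). Without glucose replicate 2, 3 of the 17 fell, GAS1 among them (-1.11, limma adjusted p = 0.0246), where 5.65% of all genes did. On the spike-in scale, with the median of all genes at -0.67, the list medians were -0.83 for the other mannoproteins, -0.54 for the integrity pathway and -1.01 for mannosylation and processing; 5 mannoprotein genes were called there, each lower in xylose, and no gene of the other 2 lists was called by limma (2 and 3 at an unadjusted p under 0.05). Without glucose replicate 1 those medians were -0.46, -0.17 and -0.41, with all genes at -0.21, and 2 mannoprotein genes were called, both lower.

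**Figure D4:**
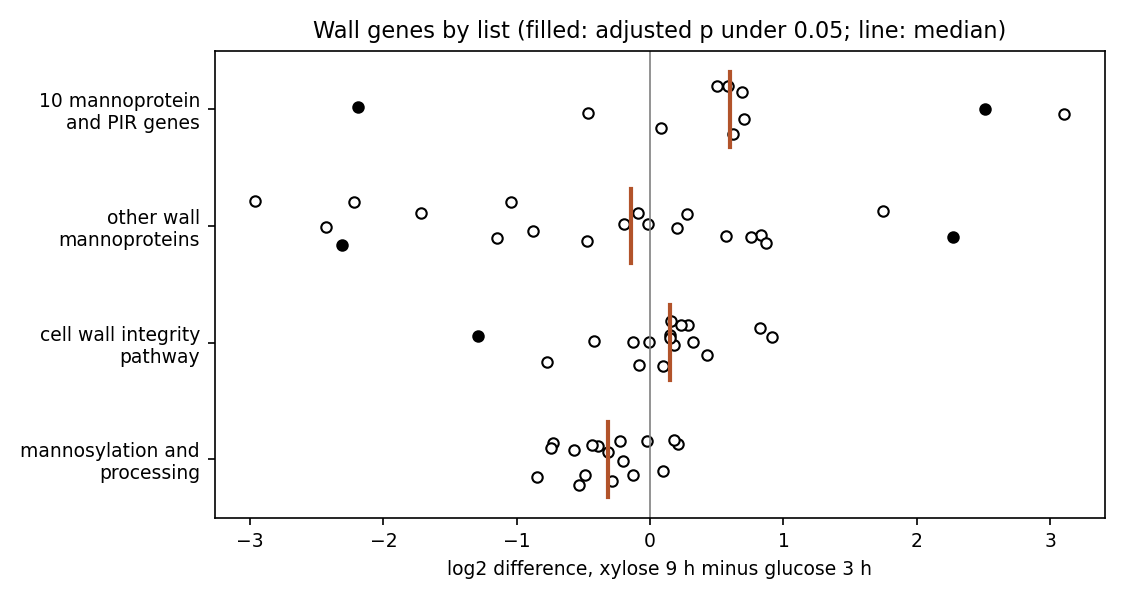
Log2 difference, xylose 9 h minus glucose 3 h (x axis), of each gene of the 10 members and of 3 lists of other wall genes; filled points passed an adjusted p of 0.05 with all 6 arrays and vertical lines mark medians. The members' median of 0.60 lies right of those of the other lists, at -0.14, 0.15 and -0.32, while members reach from -2.19 to 3.11.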

How the data were processed

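Per the file headers, the authors extracted spot intensity as a background-subtracted, detrended processed signal, the program being Agilent Feature Extraction 10.1.1.1 in the submitters' processing notes. The authors' deposited log2 table equalled the values computed here plus 1 constant per array within 0.001 for 100.0% of values; its scale and direction are thus those of log2 signal, with no centring per gene. Column medians of the table were -1.26, -1.24 and -1.40 (xylose 1 to 3) and -1.28, -1.28 and -1.43 (glucose 1 to 3). The labels do not say how it was made.

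Spots marked non-uniform or outlying (727 to 1722 of 43792 per array) were left out. From each log2 signal the 75th percentile of its array (1407 to 3871 units) was subtracted, and spots were averaged per probe. Genes well above background on at least 3 of 6 arrays were tested with limma 3.58.1 in R 4.3.3 (lmFit, eBayes, two-sided, sugar as the only term, Benjamini-Hochberg, called under 0.05). The fit was also run on simulated arrays with the same spread for every gene and no slide effect, a setting unlike these arrays. Normexp used the median spot signal. Arrays of the same number deviated together (correlations of 0.40, 0.22 and 0.71 over genes), and replicate numbers, which the titles give, were taken to pair the arrays; on the slide shared by replicates 1 and 2 unlike numbers correlated as well (0.41 for xylose 2 with glucose 1 and 0.25 for xylose 1 with glucose 2), so number and slide cannot be told apart there; with the replicate block 310 genes were called. Symbols came from the RefSeq annotation of assembly R64, matched by locus tag (5756 of 6256 probes). Members and lists were chosen with earlier results of these data known. Named by rule were all members, the called genes of each list (at least 3 a list, by size of difference) and the 3 genes most like the member with the largest difference. CCW22, PIR5, SLT2, KDX1 and the TIR and DAN genes other than TIR4 were named outside that rule. Of the mating-type markers also fixed, MFA1, MFA2, STE2, BAR1 and AGA2 of a cells were well above background on every array. With all 6 arrays none was called, though all were lower in xylose (-1.43, -2.13, -1.91, -1.25 and -0.29). Of alpha-cell markers, SAG1 (-0.26) was well above background on all 6 arrays and STE3 (1.06) on 5, neither called, and MF(ALPHA)2 on 1. Without glucose replicate 2, where 11.5% of all genes were called, STE2 was lower (-2.29, limma adjusted p = 0.0166). STE3 passed there as higher (1.84, 0.0102), on glucose levels of -6.23 and -6.64. It was well above background on all 3 xylose arrays but only 2 glucose arrays, so that call is not read as a difference. The other a-cell markers and SAG1 were not called there. MF(ALPHA)1 passed the filter through 3 xylose arrays and 1 glucose array, so no difference is given for it. The number of arrays limits the precision.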

Additional observations from a re-analysis of the deposited data

How the results depend on the processing

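The 10 members kept their direction when xylose replicates or glucose replicates 1 or 3 were left out, and under normexp, quantile and median centring; the blocks and filters leave a member's difference as it is by construction and bear only on the test. Without glucose replicate 2, YGP1 turned to -0.12; with 1 array left out it ran from -0.12 to 1.38. On the spike-in scale SED1 (-0.19), HSP150 (-6e-04), CWP2 (-0.11), CCW12 (-0.61) and YGP1 (-0.071) turned negative, against a median of all genes at -0.67. Without glucose replicate 1, whose spike-in level was the lowest of the 6, only CCW12 (-0.18) of these did, with all genes at -0.21, 139 genes called and 3 members called (CWP1, PIR3 and CIS3); this setting was added after seeing the data. With all arrays on the spike-in scale 23 genes were higher and 108 lower, against 84 and 65 in the main setting and 37 and 16 with normexp. The 149 genes called in the main setting became 310 under the replicate block, 690 under the slide block, 53 with normexp, 12 with xylose replicates 1 and 2 averaged and 0 by limma within the slide of replicates 1 and 2 (987 at an unadjusted p under 0.05), and 12 to 682 with 1 array left out, the highest without glucose replicate 2. The members called, 2 in the main setting, were 1 with normexp (CIS3), 0 within that slide (4 at an unadjusted p under 0.05) and 0 with the average (3 unadjusted), which have fewer samples, and 0 to 3 with 1 array left out. Without any xylose replicate or glucose replicate 1 no member was called by limma (3 or 4 unadjusted), and without glucose replicate 3 only CIS3 was. The replicate block changed no member's call. The smallest and largest adjusted p over all settings were 0.00444 and 0.139 for CIS3 and 0.00841 and 0.187 for CWP1.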
